A study of Mus musculus with 15 samples.

Results

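Kinesins and dyneins are the motor proteins that walk along microtubules. The genes for them were chosen by symbol, as every gene whose name starts with Kif, Klc, Dync, Dynl, Dnah, Dnai or Dnali followed by its number or letter in the annotation of the array, and 65 of the 18820 genes measured by a probe set of their own fell under this rule. Each gene was read by the probe set with the highest mean, and 15 of the 65 had more than 1 probe set. A further 9 motor genes (Dnah11, Dynlt1a, Dynlt1b, Dynlt1c, Dynlt1f, Kif20a, Kif3c, Kifc1 and Klc3) were reached only by probe sets shared with other genes and have no value here. The 65 genes were sorted by textbook role into 12 spindle kinesins, 16 transport kinesins, 9 ciliary kinesins, 3 other kinesins, 10 cytoplasmic dynein subunits, 2 subunits of the ciliary dynein 2, 12 axonemal dyneins and the pseudogene Kif4-ps.

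The arrays came from monolayers grown from duodenal organoids of female C57BL/6J mice 9 weeks old. The monolayers were exposed for 6 h to 1 of 4 undigested protein sources at a stated 4% (w/v). The sources were CAS (casein), SBM (soybean meal), YMW (the insect yellow meal worm) and SDPP (spray dried plasma protein). The medium control (MC) was given DMEM only. The study's methods also give a final protein concentration in μg/mL that is far below 4% (w/v), so the dose is uncertain. By the study's methods the protein extracts, made in DMEM, were added to monolayers in W-ENR, a culture medium with growth factors. The methods do not state whether the MC wells also held W-ENR. Each sample pooled 3 wells, and each of the 5 groups had 3 samples and 3 arrays. The labels call the samples biological replicates, and by the study's methods organoids of 3 individual mice were cultured separately, but the labels do not say which sample came from which mouse. Monolayers grown from organoids are meant to hold epithelium alone, without the immune cells, stroma and nerves of the gut wall. Of the measured markers 3 of 5 for fibroblasts, 2 of 4 for neurons and 1 of 3 for leukocytes were above background. Their list means are given with the processing below. All 7 epithelial markers checked (Epcam, Cdh1, Vil1, Krt8, Krt18, Krt19 and Cdx2) were above background, with a mean of 11.38 to 11.53 over the 12 arrays of the protein sources and 11.35, 11.61 and 11.70 in MC, all on the log2 intensity scale. Values below are log2 intensities of the authors' normalised arrays, so a difference of 1 is a doubling, and background is the level of 3.91 under which 95% of 1157 olfactory and vomeronasal receptor genes lay. The 4 comparisons with the medium all use the same 3 MC arrays, and 2 of those arrays stood apart from the third, as described below.

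Dividing cells build a bipolar spindle out of microtubules, and the spindle kinesins push its poles apart, shorten microtubule ends, move chromosomes and prepare the cut between the daughter cells. Transport kinesins carry vesicles and organelles towards microtubule plus ends, cytoplasmic dynein carries cargo towards minus ends, and ciliary and axonemal motors build and beat cilia. In the small intestine cell division is confined to the crypt, where stem cells and their dividing daughters lie, while the enterocytes of the villus have left the cell cycle and rely on transport motors to carry cargo to their brush border. Motors of beating cilia belong to multiciliated cells, which the intestinal epithelium lacks.

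Genes that peak in mitosis often carry the cell cycle genes homology region (CHR) and CCAAT boxes close to their start, so the promoters of the 8 motor genes that passed the threshold against MC in at least 1 comparison (below) are shown before their values. The stretches run from 110 bases before the transcription start to 30 bases after it, 5′ to 3′ on the strand of the gene, from RefSeq on the mouse build GRCm38.p6. They lie at chr11:102925095-102925234 on the minus strand for Kif18b, chr7:127042391-127042530 on the minus strand for Kif22, chr4:117178743-117178882 on the minus strand for Kif2c, chrX:100625955-100626094 on the plus strand for Kif4, chr9:122950971-122951110 on the plus strand for Kif15, chr4:41464819-41464958 on the minus strand for Kif24, chr4:63172102-63172241 on the minus strand for Kif12 and chr17:46646051-46646190 on the minus strand for Klc4. Capitals mark CHR letters (TTTGAA, its reverse complement TTCAAA, or TTCGAA, which reads the same on both strands) and CCAAT letters (CCAAT or its reverse complement ATTGG).
Kif18b: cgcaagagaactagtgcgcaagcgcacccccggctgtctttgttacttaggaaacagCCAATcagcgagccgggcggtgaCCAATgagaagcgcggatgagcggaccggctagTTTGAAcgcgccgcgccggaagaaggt
Kif22: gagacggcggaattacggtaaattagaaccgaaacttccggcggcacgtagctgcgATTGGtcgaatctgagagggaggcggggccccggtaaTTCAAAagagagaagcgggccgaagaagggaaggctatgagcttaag
Kif2c: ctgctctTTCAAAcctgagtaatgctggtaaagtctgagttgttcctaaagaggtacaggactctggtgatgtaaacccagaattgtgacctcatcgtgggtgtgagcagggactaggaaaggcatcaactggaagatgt
Kif4: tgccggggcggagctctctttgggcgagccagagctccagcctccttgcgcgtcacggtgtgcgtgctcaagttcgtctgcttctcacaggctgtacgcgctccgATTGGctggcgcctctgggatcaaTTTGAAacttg
Kif15: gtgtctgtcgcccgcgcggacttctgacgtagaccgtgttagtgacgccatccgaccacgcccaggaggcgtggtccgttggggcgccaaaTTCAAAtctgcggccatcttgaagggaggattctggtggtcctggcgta
Kif24: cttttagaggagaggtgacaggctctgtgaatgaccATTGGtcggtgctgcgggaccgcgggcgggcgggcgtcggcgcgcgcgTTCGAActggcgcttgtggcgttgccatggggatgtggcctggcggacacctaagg
Kif12: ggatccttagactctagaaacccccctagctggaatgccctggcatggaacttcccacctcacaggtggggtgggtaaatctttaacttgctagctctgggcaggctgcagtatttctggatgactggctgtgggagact
Klc4: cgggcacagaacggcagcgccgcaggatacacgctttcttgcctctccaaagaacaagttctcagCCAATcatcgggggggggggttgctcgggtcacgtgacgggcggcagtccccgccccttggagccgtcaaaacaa

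Within 300 bases (250 before the start and 50 after it), CHR letters were found in 10 of the 12 spindle kinesins, or 83.3%, in 6 of 41 other motors with a promoter in the table, or 14.6%, and in 21.7% of 27025 genes. CCAAT letters were found in 8 of 12 spindle kinesins (66.7%), in 16 of 41 other motors (39%) and in 41.1% of all genes. Both motifs together were found in 7 of 12 spindle kinesins (58.3%), in 4 of 41 other motors (9.76%) and in 8.61% of all genes. The motifs were searched one by one on both strands and can share a base where they abut. In the stretches printed above, Kif18b has a pair of CCAAT boxes followed by 1 CHR, and Kif22, Kif24 and Kif4 have 1 of each. Kif15 and Kif2c have a CHR alone, Kif12 has neither, and Klc4 has a CCAAT box alone. A match is a run of letters in a window and was not tested as a binding site.

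Some of the spindle kinesins were higher after each protein source than in MC. By limma, at an unadjusted p under 0.05 and a change of at least 1.5-fold, 5 of 12 were higher in CAS (1.82% of all 18820 genes), 5 in SBM (1.37% of all genes), 3 in SDPP (1.13%) and 5 in YMW (1.74%), and none was lower, also at an unadjusted p under 0.05 alone. Of all genes 2.04% were lower in CAS, 2.14% in SBM, 0.499% in SDPP and 2.13% in YMW. Kif18b, Kif2c and Kif4 passed in all 4 comparisons, and Kif22 and Kif15 passed in CAS, SBM and YMW. The median log2 difference of the 12 genes was 0.49 in CAS, 0.51 in SBM, 0.46 in SDPP and 0.43 in YMW, against medians over all genes of -0.0023, -0.0095, 0.0033 and 0.0188. In the mean of the 4 sources 5 of the 12 were higher than in MC at the same threshold (1.45% of all genes were higher and 1.9% lower), and 9 of the 12 were higher at an unadjusted p under 0.05 alone (23% of all genes in either direction). After Benjamini-Hochberg adjustment over all 18820 genes no spindle kinesin had an adjusted p under 0.05 in any of these comparisons by limma, and of all genes 0.654% had one in CAS, 0.00531% in SBM, 0% in SDPP, 0.00531% in YMW and 1.52% in the mean of the sources. The lowest adjusted p was 0.056, for Kif22 in the mean of the 4 sources. Among the 5 called spindle kinesins Kif18b alone had more than 1 probe set. With the mean of all probe sets of a gene in place of the brightest, Kif18b lost its calls and fewer spindle kinesins passed the threshold. The counts were then 4 in CAS, 4 in SBM, 2 in SDPP and 4 in YMW.

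Kif18b is a kinesin of microtubule plus ends that shortens astral microtubules in mitosis. Its log2 intensity was 8.32, 8.21 and 8.11 in CAS, 8.05, 8.00 and 8.00 in SBM, 7.86, 8.08 and 8.29 in SDPP, 7.87, 8.10 and 8.12 in YMW and 8.13, 7.18 and 6.79 in MC. MC replicate 1 lay among the 12 arrays of the sources, and MC replicates 2 and 3 lay below all of them. The log2 difference from MC was 0.85 in CAS, 0.65 in SBM, 0.71 in SDPP and 0.66 in YMW, each with an SE of 0.23, with limma adjusted p of 0.109, 0.195, 0.351 and 0.163. The same order of arrays held for the other called spindle kinesins. Kif22 is a chromokinesin, which binds chromosome arms and pushes them away from the spindle poles. It read 8.15, 8.08 and 7.90 in CAS, 7.98, 7.80 and 7.73 in SBM, 7.64, 7.83 and 7.99 in SDPP, 7.83, 8.08 and 7.90 in YMW and 7.89, 7.12 and 6.74 in MC. The CAS arrays were all above those of MC, as they were for 5.65% of all genes, though CAS replicate 3 was just above MC replicate 1, and the other 3 sources overlapped MC through its replicate 1. The log2 difference from MC was 0.79 in CAS, 0.59 in SBM, 0.56 in SDPP and 0.68 in YMW (SE 0.21).

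Kif2c, or MCAK, takes apart microtubule ends at centromeres and corrects faulty attachments. It read 8.37, 8.40 and 8.17 in CAS, 8.45, 8.21 and 8.02 in SBM, 7.94, 8.19 and 8.52 in SDPP, 8.16, 8.20 and 8.11 in YMW and 8.37, 7.38 and 6.86 in MC. Its log2 difference from MC lay between 0.62 in YMW and 0.78 in CAS (SE 0.27). MC replicate 1 was above 8 of the 12 arrays of the sources, and the other 2 MC arrays were below them all. Kif4 is the second chromokinesin and, with its partner Prc1, organises the bundled microtubules between the separating chromosomes. It read 7.75, 7.63 and 7.55 in CAS, 7.71, 7.69 and 7.53 in SBM, 7.38, 7.46 and 7.80 in SDPP, 7.52, 7.74 and 7.37 in YMW and 7.74, 6.77 and 6.20 in MC. Its log2 difference from MC was 0.74 in CAS, 0.74 in SBM, 0.65 in SDPP and 0.64 in YMW (SE 0.27). Kif15 helps to keep spindle poles apart and can stand in for Kif11. It read 7.61, 7.69 and 7.47 in CAS, 7.90, 7.59 and 7.58 in SBM, 7.28, 7.47 and 7.79 in SDPP, 7.59, 7.75 and 7.70 in YMW and 7.77, 6.79 and 6.40 in MC. Its log2 difference from MC was 0.60 in CAS, 0.70 in SBM, 0.52 in SDPP and 0.69 in YMW (SE 0.25), and the value in SDPP had an unadjusted p of 0.053 by limma, short of the threshold. Kif15 in SDPP thus missed on both parts of the rule, and Kif22 in SDPP, with a p of 0.017, missed on its fold of 1.48 alone.

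**Figure D1:**
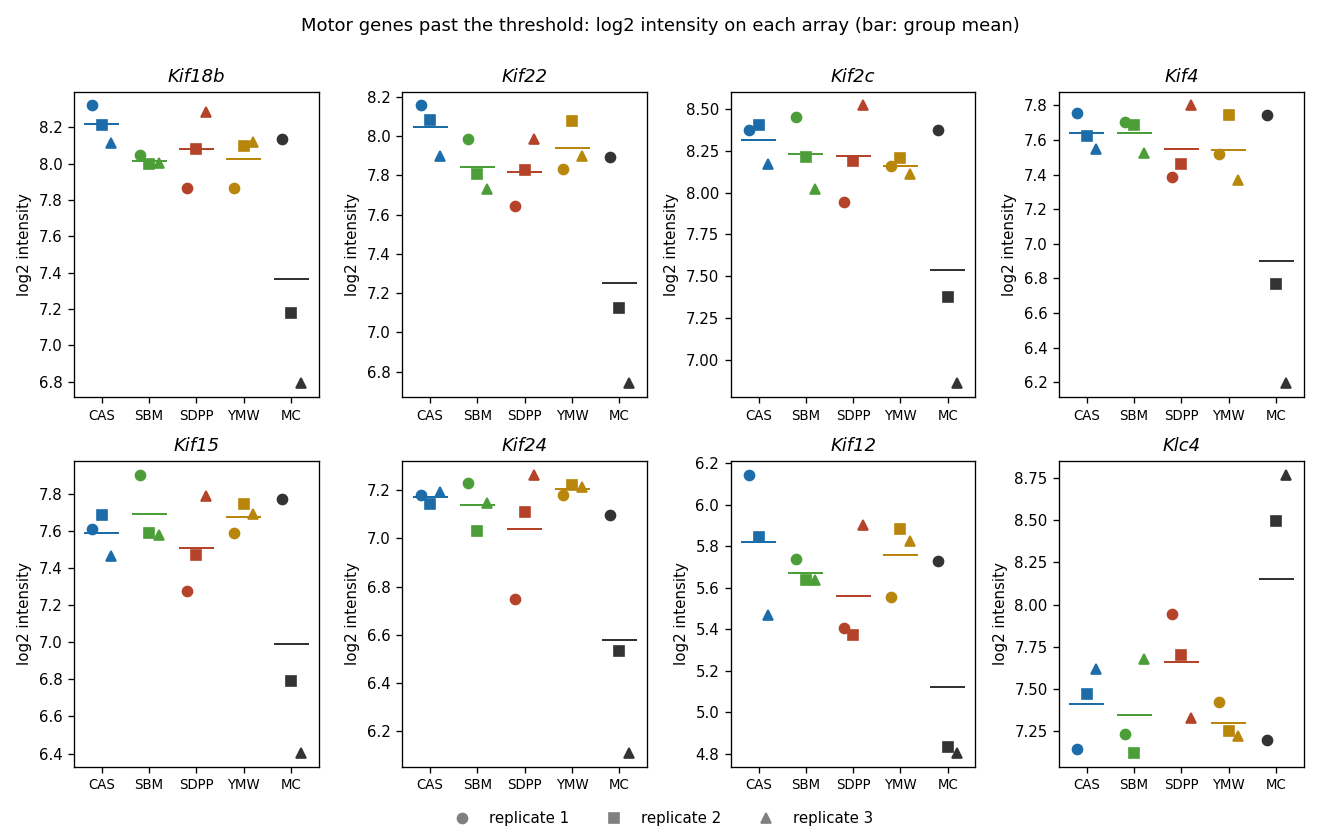
Log2 intensity on each of the 15 arrays for the 8 motor genes past the threshold in at least 1 comparison with MC, with 1 panel for each gene, points shaped by replicate number and a bar at each group mean. In every panel MC replicate 1 lies near the arrays of the protein sources, while MC replicates 2 and 3 lie below them, or above them for Klc4.

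The other 7 spindle kinesins did not pass the fold threshold. Kif11, or Eg5, the tetramer that slides antiparallel microtubules and sets up the bipolar spindle, read 8.86, 8.98 and 8.77 in CAS, 9.15, 8.80 and 8.64 in SBM, 8.66, 8.61 and 8.91 in SDPP, 8.73, 8.78 and 8.70 in YMW and 8.96, 8.28 and 7.78 in MC. Its log2 difference was 0.53, 0.52, 0.38 and 0.40 in CAS, SBM, SDPP and YMW (SE 0.21), and the values in CAS and SBM had unadjusted p of 0.027 and 0.029 by limma. Kif18a, which limits the length of kinetochore microtubules, differed by 0.38 to 0.50 on the log2 scale (SE 0.22). Kif14 and Kif20b, both needed for cytokinesis, differed by 0.41 to 0.50 (SE 0.27) and by 0.25 to 0.46 (SE 0.22). Kif23, which forms the centralspindlin complex with Racgap1, differed by 0.30 to 0.40 (SE 0.20). Kifc5b, a near copy of the minus-end motor Kifc1 whose probes may also read Kifc1, differed by 0.10 to 0.33 (SE 0.15). Kif2b, a relative of Kif2c, was below background on average, with 3.16 to 3.86 on the 12 arrays of the sources and 3.60, 3.51 and 3.69 in MC.

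**Figure D2:**
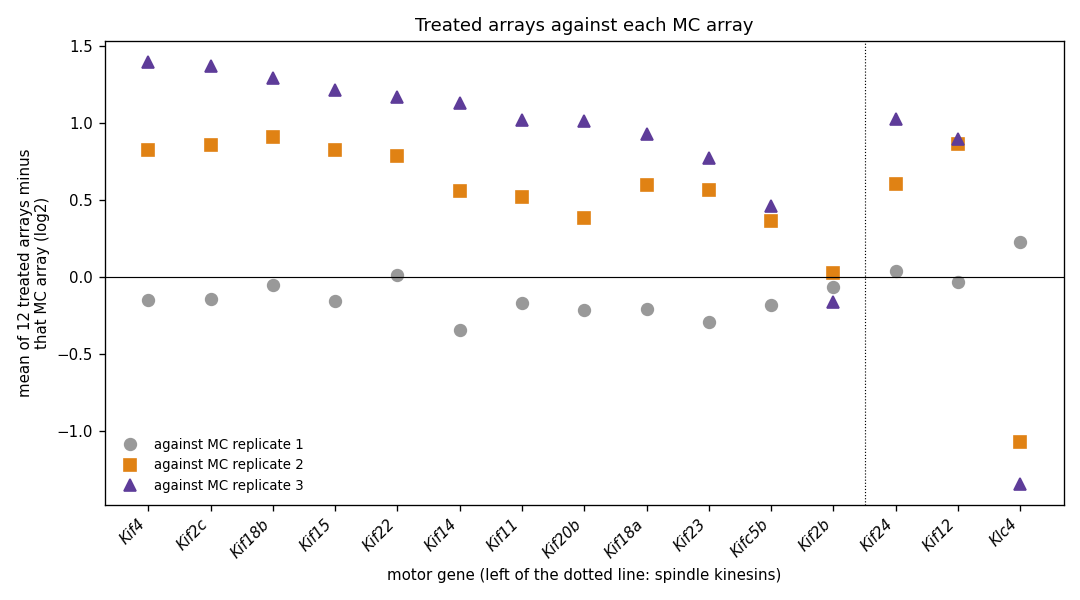
Mean log2 intensity of the 12 arrays of the protein sources minus the log2 intensity of each single MC array, for the 12 spindle kinesins (left of the dotted line) and the 3 other motor genes past the threshold. Against MC replicates 2 and 3 the differences are positive for the 11 spindle kinesins above background, and against MC replicate 1 those of the spindle kinesins lie between -0.34 for Kif14 and 0.016 for Kif22.

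The MC arrays spread more than the others for these genes. For the 11 spindle kinesins above background the SD of the 3 MC arrays was 0.35 to 0.78 (median 0.61), while the SD over all 12 arrays of the sources as 1 set was 0.12 to 0.19 (median 0.15). MC replicates 2 and 3 were both below all 12 arrays of the sources for 11 of these 11 genes, for 7 of 37 other motors above background and for 18.9% of the 12880 genes above background. MC replicate 1 fell inside the span of those 12 arrays for 9 of the 11 genes, a share like the 83.3% of the genes above background. For Kif14 and Kif23 MC replicate 1 lay above all 12 arrays. Kif14 read 6.85 in MC replicate 1 against 5.95 and 5.39 in the other MC arrays, and Kif23 read 9.63 against 8.78 and 8.57. Since the fit shares 1 variance over the 5 groups, the standard errors above are too small for comparisons with MC. With MC replicate 3 left out no spindle kinesin passed in any comparison, with MC replicate 1 left out 9 or 10 passed in each, and without MC replicate 2 the counts were 4 in CAS and 1 in each of SBM, SDPP and YMW. The share of all genes that passed in these fits was not counted, so the counts do not show a change particular to spindle kinesins.

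When each protein source was set against the mean of the other 3, none of the 65 motor genes passed the same threshold by limma, which 0.159% of all genes did in CAS, 0.0266% in SBM, 0.0159% in SDPP and 0.0691% in YMW. At an unadjusted p under 0.05 alone there was 1 motor, the kinesin-1 light chain Klc1, lower in SBM by a log2 difference of -0.23 and higher in YMW by 0.21 (SE 0.08), with adjusted p of 0.884 and 0.803. Of all genes 5.36% had such a p in CAS, 4.83% in SBM, 2.42% in SDPP and 5.5% in YMW. For the 11 spindle kinesins above background the 4 group means lay within 0.09 to 0.23 of each other on the log2 scale. Among the arrays of the sources, SDPP replicate 1 was below their mean for 11 of these 11 genes, and SDPP replicate 3 and CAS replicate 2 were above it for 11 of 11. Of the 37 other motors above background, SDPP replicate 1 was above that mean for 21, SDPP replicate 3 for 21 and CAS replicate 2 for 15. The share of all genes was not counted. Nor was the share of all genes called when a single array was left out. The count of called spindle kinesins moved with single arrays of the sources. It was 2 in SBM without SBM replicate 1, 7 in SBM without SBM replicate 3, 5 in SDPP without SDPP replicate 1, 1 in SDPP without SDPP replicate 3, and 3 in YMW without YMW replicate 1 or without YMW replicate 2.

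**Figure D3:**
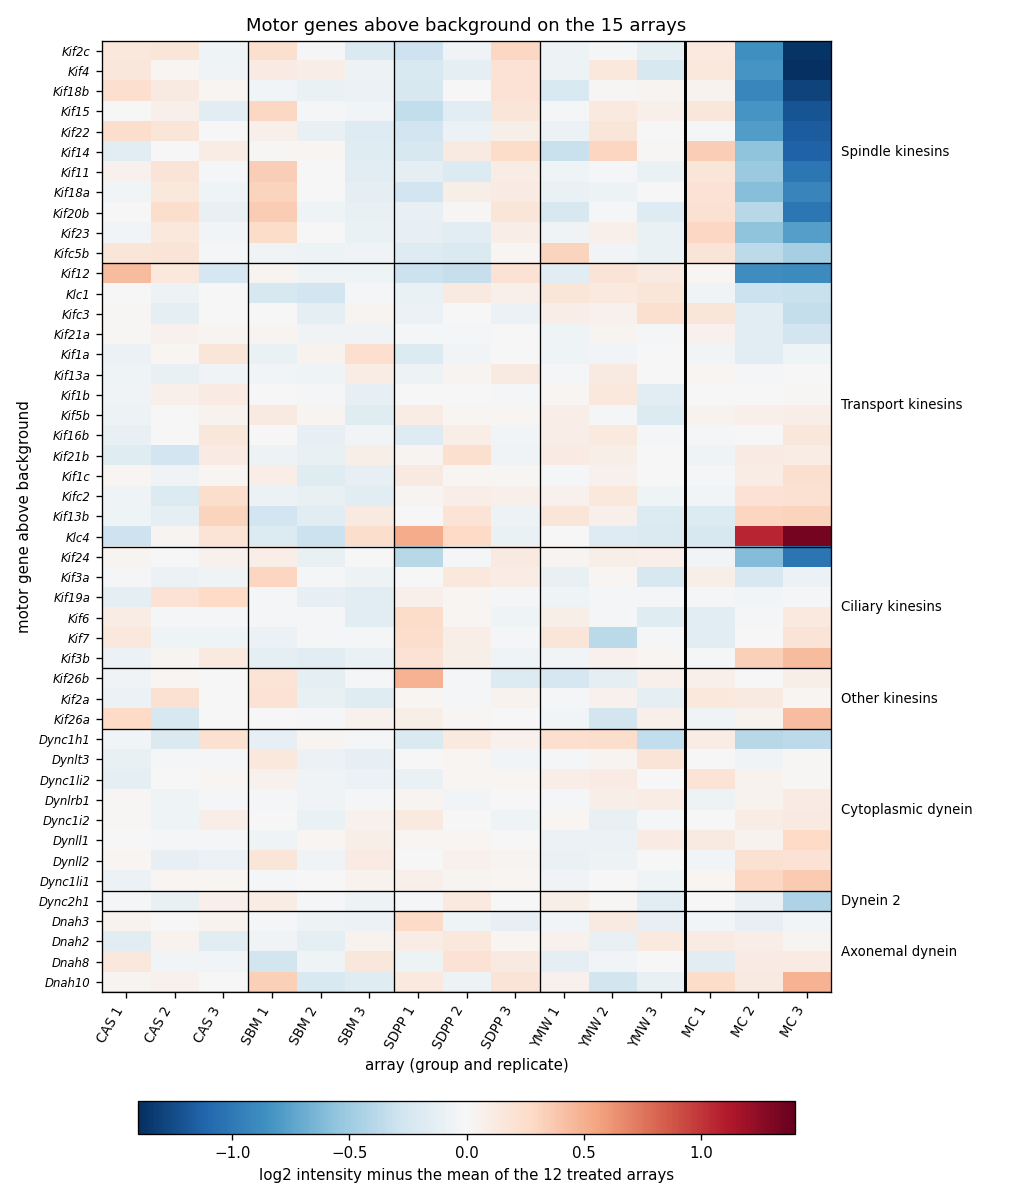
Log2 intensity of motor genes above background on each array minus the mean of the 12 arrays of the protein sources, by class, with Kif4-ps left out. MC replicates 2 and 3 are blue (lower) for the spindle kinesins, Kif12 and Kif24 and red (higher) for Klc4, while MC replicate 1 is pale.

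Outside the spindle class, 3 of 53 motors passed the threshold in CAS, 1 in SBM, none in SDPP and 3 in YMW, where 3.85%, 3.5%, 1.63% and 3.87% of all genes passed in either direction. At an unadjusted p under 0.05 by limma 4 of the 53 differed in SDPP (12% of all genes), and no adjusted p was under 0.05 in any comparison. The 3 genes were Kif12, Kif24 and Klc4. The median log2 difference of the 53 genes was -0.043 in CAS, -0.064 in SBM, 0.0028 in SDPP and -0.026 in YMW, close to the medians over all genes.

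Kif24 is a kinesin of the mother centriole that takes apart microtubules there and holds back the growth of a primary cilium. It read 7.18, 7.14 and 7.19 in CAS, 7.23, 7.03 and 7.15 in SBM, 6.75, 7.11 and 7.26 in SDPP, 7.18, 7.22 and 7.21 in YMW and 7.10, 6.53 and 6.11 in MC. The arrays of CAS and of YMW were all above those of MC (7.42% of all genes were higher without overlap in YMW). Its log2 difference from MC was 0.59 in CAS, 0.56 in SBM, 0.46 in SDPP and 0.63 in YMW (SE 0.19), and it passed in CAS and YMW with limma adjusted p of 0.137 and 0.125. Kif12 is a little described kinesin whose loss in people is known from cholestatic liver disease. It read 6.14, 5.84 and 5.47 in CAS, 5.74, 5.64 and 5.64 in SBM, 5.40, 5.37 and 5.90 in SDPP, 5.56, 5.88 and 5.82 in YMW and 5.73, 4.83 and 4.80 in MC. It passed in CAS, by 0.70, and in YMW, by 0.63, while the log2 differences in SBM and SDPP were 0.55 and 0.44 (SE 0.23).

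Klc4, a light chain that links kinesin-1 to its cargo, was the one motor that fell past the threshold. It read 7.14, 7.47 and 7.62 in CAS, 7.23, 7.12 and 7.68 in SBM, 7.94, 7.70 and 7.33 in SDPP, 7.43, 7.25 and 7.22 in YMW and 7.20, 8.49 and 8.77 in MC. MC replicates 2 and 3 were above all 12 arrays of the sources, and MC replicate 1 was below 10 of them. The log2 difference from MC was -0.74 in CAS, -0.81 in SBM, -0.49 in SDPP and -0.85 in YMW (SE 0.30), past the threshold in all but SDPP. The kinesin-1 heavy chain Kif5b read 9.92 to 10.23 in the sources and 10.15, 10.18 and 10.20 in MC, and the light chain Klc1 read 7.70 to 8.14 in the sources and 7.92, 7.66 and 7.65 in MC. Neither passed. Klc4 was thus high on the same 2 MC arrays on which the spindle kinesins were low. MC replicates 2 and 3 were both above all 12 arrays of the sources for 4 of the 37 other motors above background (Klc4, Kif3b, Dync1li1 and Dynll2) and for 15.7% of the genes above background. They were both below for the 7 motors Kif24, Kif12, Kif21a, Kifc3, Klc1, Dync1h1 and Kif4-ps.

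Of the 16 transport kinesins 14 were above background, and apart from Kif12 and Klc4 none was past the threshold. Klc1 had the lowest p among them in YMW, with a log2 difference from MC of 0.38 (SE 0.09, limma adjusted p 0.093), short of 1.5-fold, and its YMW arrays were all above those of MC (7.42% of all genes). In SDPP its log2 difference was 0.25, with an unadjusted p of 0.017 by limma. The neuronal heavy chains Kif5a and Kif5c were below background on average. The vesicle carriers Kif1b and Kif13a read 7.91 to 8.21 and 7.95 to 8.17 in the sources and 8.05 to 8.08 and 8.03 to 8.07 in MC. Among the ciliary kinesins, Kif3b, a heavy chain of the kinesin-2 motor that carries cargo out along the cilium, read 6.86 to 7.21 in the sources and 6.99, 7.34 and 7.45 in MC. Its log2 difference was -0.37 in SBM, where the arrays did not overlap MC (8.96% of all genes were lower without overlap), and -0.17 to -0.23 in the other sources (SE 0.11). Its partner Kif3a read 6.19 to 6.72 in the sources and 6.50, 6.19 and 6.33 in MC. Kif7, which orders the tip of the cilium and acts in Hedgehog signalling, read 4.31 to 4.94 in the sources and 4.54, 4.69 and 4.87 in MC. Kif9, Kif17 and Kif27 were below background on average, and Kif6 and Kif19a did not exceed 4.81 on any array. Of the 3 other kinesins, Kif2a, a microtubule depolymerase of spindles and neurons, read 8.07 to 8.45 in the sources and 8.38, 8.36 and 8.25 in MC. Kif2a was sorted outside the spindle class. Its MC arrays lay within the span of the sources, unlike MC replicates 2 and 3 for spindle kinesins above background. Counting Kif2a as a spindle kinesin and leaving out Kifc5b did not change the counts past the threshold. Kif26a, a kinesin without motor activity, read 4.46 to 4.99 in the sources and 4.66, 4.76 and 5.14 in MC. Neither Kif2a nor Kif26a passed. The pseudogene Kif4-ps read 3.83 to 4.27 in the sources and 4.00, 3.82 and 3.82 in MC, and its probes may read Kif4.

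Cytoplasmic dynein was expressed through most of its subunits, with 8 of 10 above background and no subunit past the threshold by limma in any comparison. At an unadjusted p under 0.05 alone 3 subunits were lower in CAS, 1 in SBM, 1 in SDPP and 3 in YMW, where 16.5%, 18.2%, 12% and 19% of all genes had such a p in either direction. The heavy chain Dync1h1, which holds the motor, read 8.91 to 9.50 in the sources and 9.36, 8.88 and 8.90 in MC, with log2 differences of 0.18 to 0.26 (SE 0.17). The light intermediate chain Dync1li1, which binds cargo adaptors, read 8.78 to 8.93 in the sources and 8.89, 9.16 and 9.23 in MC. Its log2 difference was -0.24 in CAS, -0.22 in SBM, -0.19 in SDPP and -0.27 in YMW (SE 0.08), small in size but with unadjusted p of 0.0053 to 0.039 by limma. In YMW its arrays did not overlap those of MC (7.12% of all genes were lower without overlap). The light chains Dynll1 and Dynlrb1 read 10.58 to 10.77 and 10.61 to 10.78 in the sources and 10.71 to 10.94 and 10.60 to 10.79 in MC. The light chain Dynll2, shared with myosin V, read 8.84 to 9.13 in the sources and 8.92, 9.17 and 9.16 in MC. The neuronal intermediate chain Dync1i1 and the light chain Dynlrb2 were below background on average.

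Dynein motors of cilia lay near background. Dync2h1, the heavy chain of dynein 2 that brings cargo back from the ciliary tip, read 4.49 to 4.78 in the sources and 4.66, 4.56 and 4.22 in MC, and its light intermediate chain Dync2li1 was below background on average. Of 12 axonemal dyneins, which power the beat of motile cilia, 4 were above background (Dnah2, Dnah3, Dnah8 and Dnah10) and none passed the threshold by limma, with 1 lower at an unadjusted p under 0.05 in SBM and in YMW. The largest difference among those 4 was that of Dnah10, which read 3.80 to 4.40 in the sources and 4.32, 4.19 and 4.56 in MC, with -0.39 in YMW (SE 0.14). Dnah2 read 4.05 to 4.36 in the sources and 4.33, 4.30 and 4.26 in MC. Of 15 measured genes for axoneme assembly 5 were above background, and of 7 markers of multiciliated cells 3 were, with a list mean of 3.75 to 3.95 in the sources and 3.77 to 3.84 in MC. None of either list passed the threshold in any comparison.

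**Figure D4:**
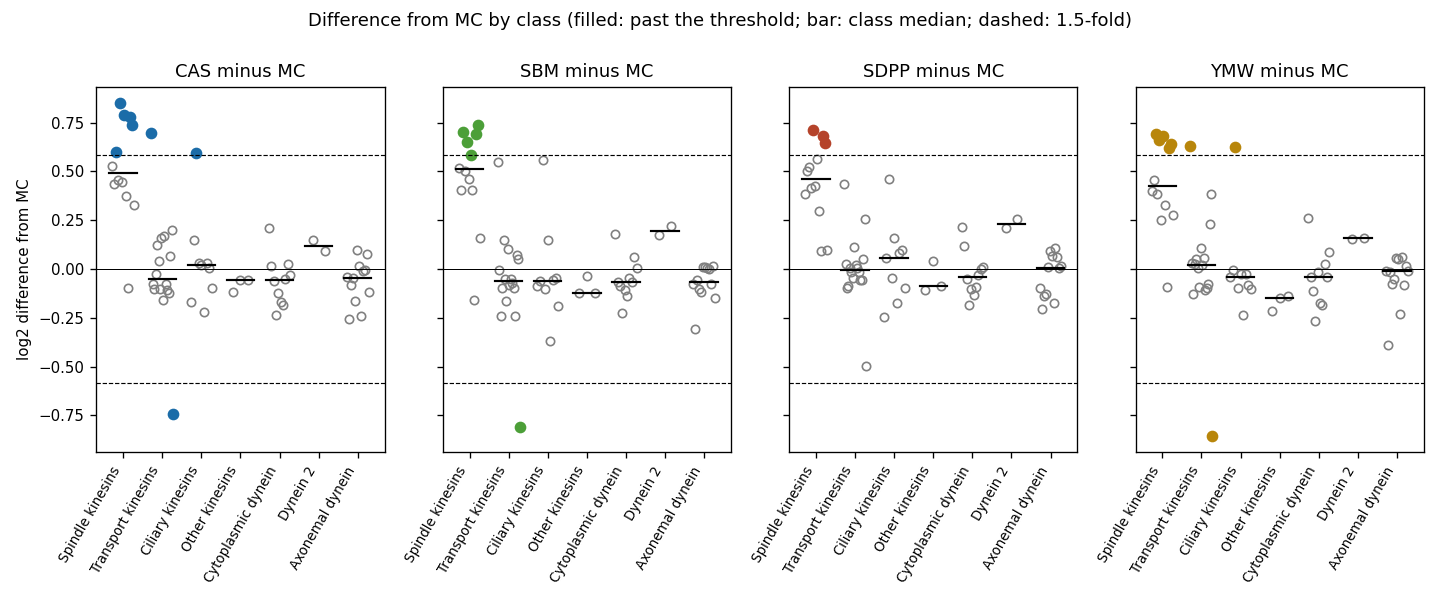
Log2 difference from MC of each motor gene in the 4 comparisons, by class, with filled points past the threshold (unadjusted p under 0.05 and at least 1.5-fold), a bar at each class median and dashed lines at 1.5-fold; Kif4-ps is left out. Only the spindle kinesins have class medians between 0.43 and 0.51, and the other filled points are Kif12, Kif24 and Klc4.

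Genes that work with the motors were read from lists of textbook partners. Of 30 measured partners of the spindle kinesins, 14 were higher in CAS, 11 in SBM, 9 in SDPP and 9 in YMW, and none was lower, with median log2 differences of 0.57, 0.53, 0.48 and 0.50. Of all genes 1.82%, 1.37%, 1.13% and 1.74% were higher in the same comparisons and 2.04%, 2.14%, 0.499% and 2.13% were lower. They included Racgap1, the partner of Kif23, at 0.85, 0.70, 0.74 and 0.80 in CAS, SBM, SDPP and YMW. Tpx2, which brings Aurora A kinase and Kif15 to spindle microtubules, was higher by 0.77, 0.70, 0.68 and 0.64. Prc1, the partner of Kif4, passed in CAS alone, with log2 differences of 0.64, 0.55, 0.51 and 0.51, a difference between sources that was not past the threshold itself. Gpsm2, which anchors dynein at the cell cortex to orient the spindle, did not pass, with 0.00 to 0.08 in the 4 sources. Of 26 measured genes of dynactin and of dynein and kinesin adaptors 1 was called, Nde1, a dynein regulator, at 0.67 in CAS, a share like the 3.85% of all genes called there in either direction. The list medians lay between -0.055 and -0.017. At an unadjusted p under 0.05 alone by limma, 3 of the 26 were higher and 8 lower in SBM (18.2% of all genes in either direction). In CAS 4 were higher and 3 lower (16.5%), and in SDPP (12%) and YMW (19%) 2 were higher and 3 lower in each. Of 26 genes of intraflagellar transport, 1 was higher in CAS (1.82% of all genes) and 2 in SBM (1.37%), and the list medians were 0.14 to 0.27. In SBM 8 of the 26 were higher and 2 lower at an unadjusted p under 0.05 by limma (18.2% of all genes in either direction), and 7 were higher without overlap with MC (4.97% of all genes). The 2 in SBM were Ttc21b, at 0.80, and Ttc30b, at 0.73, which was below background on average.

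Markers of cell division, stem cells and enterocytes moved over the same arrays. The mean log2 intensity of the 12 spindle kinesins was 7.21 to 7.57 in the 12 arrays of the sources and 7.57, 6.80 and 6.44 in MC. The 5 measured cycling markers of 6 listed averaged 9.50 to 9.79 in the sources and 9.81, 9.13 and 8.74 in MC, and the 30 spindle partners averaged 7.69 to 8.01 in the sources and 7.98, 7.20 and 6.85 in MC. All 3 lists were thus lowest on MC replicates 2 and 3. Stem cell markers (6 genes) averaged 9.29 to 9.73 in the sources and 9.59, 8.78 and 8.17 in MC, and enterocyte markers (10 genes) averaged 7.99 to 9.92 in the sources and 8.29, 10.34 and 10.36 in MC. The 53 other motors averaged 5.79 to 5.88 in the sources and 5.83, 5.86 and 5.91 in MC. In these bulk samples fewer dividing cells and less RNA of these genes per cell cannot be told apart, and the part of the cell makeup of the arrays in the differences was not tested.

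**Figure D5:**
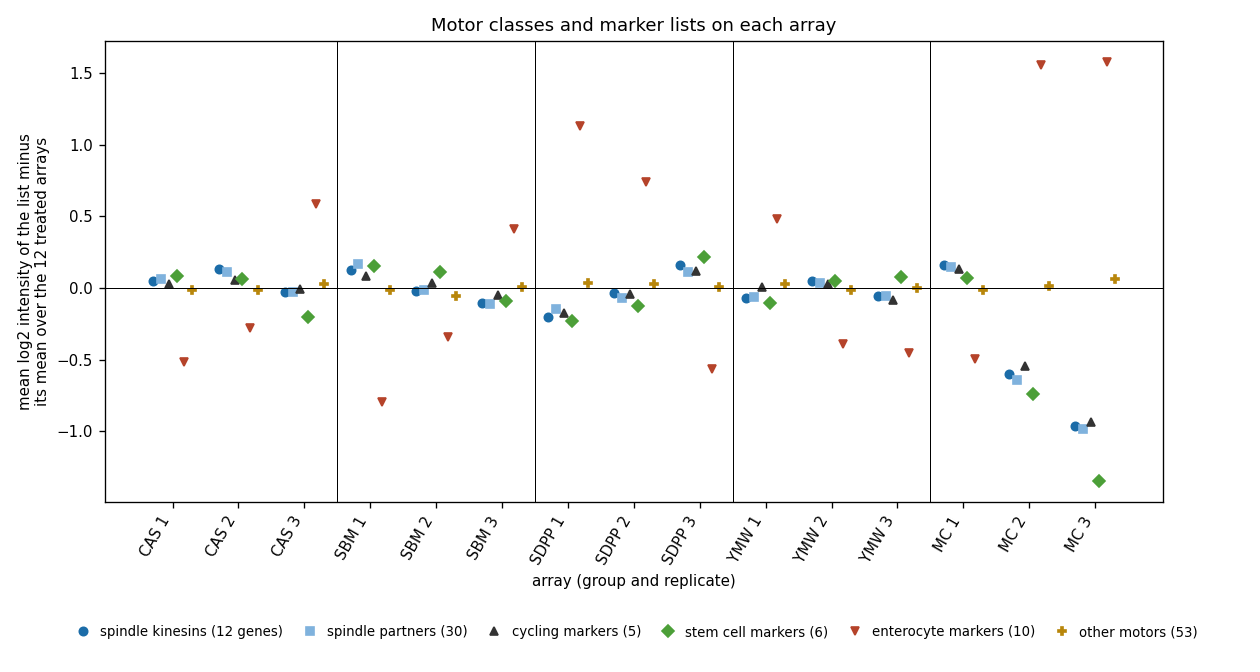
Mean log2 intensity of each gene list on each array minus its mean over the 12 arrays of the protein sources, with points for a list set slightly apart for each array. Spindle kinesins, their partners, cycling markers and stem cell markers are lowest in MC replicates 2 and 3, where enterocyte markers are highest, and the 53 other motors stay near 0.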

How the data were processed

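Gene expression was measured on Affymetrix mouse gene 1.1 ST arrays in 15 samples, 3 for each of 5 groups. The authors summarised and quantile normalised the probes by the robust multi-array average and deposited linear intensities for 35556 probe sets, from 3.02 to 10739 with array medians of 21.7 to 24.1; the software version is not given in the sources used here. Per the labels and the platform annotation, 21218 probe sets carried 1 gene symbol, 1881 several and 12457 none. Of several probe sets for a gene, the one brightest on average was used, which left 18820 genes. Intensities were log2 transformed, and the 5 group means were fitted with limma 3.58.1 in R 4.3.3 (moderated statistics with a trend of variance on intensity), after the script was tested on simulated data. A call needed an unadjusted p under 0.05 and a fold of at least 1.5, the thresholds of the study's methods, with Benjamini-Hochberg adjustment over all genes given beside it. The number of arrays limits the precision. Background was set at an intensity of 15.1, the 95th percentile of receptor genes for smell and pheromones.

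The text names all spindle kinesins, every other motor past the threshold, and up to 2 motors above background per other class with the largest mean absolute difference from MC; any other motor in the text was added after its values were seen. The members, classes and lists were chosen with earlier results of these data known. Promoter sequences came from RefSeq (GRCm38.p6) for 53 of the 65 members. Alternatives were the variance prior, the normalization, array weights, the filter on dim genes, the choice of probe sets, the replicate number as a block, MC replicate 1 as the only control, and leaving out each array. A further alternative counted Kif2a as a spindle kinesin and left out Kifc5b. Neurons (4 of 6 listed markers measured, 2 above background), leukocytes (3 of 4 measured, 1 above) and fibroblasts (5 measured, 3 above) had list means of 4.00 to 4.33, 3.54 to 3.69 and 4.21 to 4.44 in the protein sources and 4.13 to 4.24, 3.54 to 3.59 and 4.33 to 4.61 in MC. Enteroendocrine (6 measured, 6 above) and tuft cell markers (6 measured, 5 above) averaged 6.47 to 7.20 and 4.73 to 5.01 in the protein sources and 6.55 to 6.73 and 4.76 to 4.84 in MC.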

Additional observations from a re-analysis of the deposited data

How the results depend on the processing

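Counts and directions changed with the MC arrays used. With MC replicate 1 as the only control, a single array assumed to vary like the arrays of the other groups, the counts of spindle kinesins and of other motors past the threshold were 0 in each comparison, which a test on 1 control array does not settle, and the median log2 difference of the spindle kinesins was -0.098 in CAS, -0.14 in SBM, -0.21 in SDPP and -0.21 in YMW. In that setting the mean of the 4 sources minus MC turned sign to -0.099 for Dync1h1, -0.010 for Dync2h1, -0.17 for Kif11, -0.028 for Kif12, -0.34 for Kif14, -0.15 for Kif15, -0.21 for Kif18a, -0.048 for Kif18b, -0.21 for Kif20b, -0.29 for Kif23, 0.053 for Kif26a, -0.14 for Kif2c, 0.022 for Kif3b, -0.15 for Kif4, -0.031 for Kif4-ps, -0.18 for Kifc5b and 0.23 for Klc4. Among the single comparisons that had passed, it turned to -0.18 in CAS, -0.081 in SBM and -0.094 in YMW for Kif15, to -0.12 in SBM, -0.055 in SDPP and -0.11 in YMW for Kif18b, and to -0.055 in SBM for Kif22. It also turned to -0.056 in CAS, -0.14 in SBM, -0.16 in SDPP and -0.21 in YMW for Kif2c, to -0.10 in CAS, -0.10 in SBM, -0.19 in SDPP and -0.20 in YMW for Kif4, and to 0.21 in CAS, 0.14 in SBM and 0.099 in YMW for Klc4. With each array left out in turn the value for Kif26a lay between -0.24 (without MC replicate 1) and 0.0040 (without MC replicate 3), and with array weights that for Kif2b was 0.044.

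Leaving out each array in turn gave 0 to 10 called spindle kinesins in CAS, SBM, SDPP and the mean of the sources, 0 to 9 in YMW, and 0 to 3 other motors in each comparison. Both ends came from MC arrays, with 0 spindle kinesins without MC replicate 3 and 9 or 10 without MC replicate 1. Without MC replicate 1, 10 or 11 of the 12 also had a limma adjusted p under 0.05. So did 9 of the 53 other motors in CAS, 5 in SBM, 6 in SDPP, 9 in YMW and 10 in the mean of the sources. The share of all genes in that fit was not counted. Among other motors the count past the threshold was 1 in CAS without CAS replicate 1, 0 in SBM without SBM replicate 1, 1 in SDPP without SDPP replicate 1, 0 in CAS and SBM and 1 in YMW without MC replicate 2, 0 in each of CAS, SBM and YMW without MC replicate 3, and 3 in SBM and SDPP without MC replicate 1. In the mean of the sources it was 2 without CAS replicate 3, SDPP replicate 2 or YMW replicate 1, 3 without SDPP replicate 1 or MC replicate 1, and 0 without MC replicate 2 or 3. With the arrays of 2 groups alone the spindle counts were 2 in CAS, 0 in SBM, 0 in SDPP and 1 in YMW, and that of other motors in SBM was 0; fewer arrays then estimate the spread. With array weights, an estimate that did not converge and gave MC replicate 2 a weight of 21.1, the spindle counts were 8 in CAS and 6 in SDPP, the other motors 2 in SBM, 2 in SDPP and 3 in the mean of the sources. In that fit 10 or 11 spindle kinesins had an adjusted p under 0.05 by limma in each comparison. So did 18 of the 53 other motors in CAS, 15 in SBM, 13 in SDPP, 16 in YMW and 28 in the mean of the sources. The share of all genes was not counted with array weights or in any other alternative fit. These counts therefore do not set spindle kinesins apart from other genes. With arrays centred on their median, YMW had 3 spindle kinesins and 1 other motor; the cause was not tested. In the mean of the sources an adjusted p under 0.05 was reached by 2 spindle kinesins and 2 other motors with genes above background alone, and by 1 spindle kinesin each with a second quantile normalization and with arrays centred on their median. Deviations from the group means had a median correlation of -0.077 between same-numbered samples (-0.59 to 0.45 over 30 pairs). With 3 arrays in each group this does not settle whether the numbers pair the samples. In a fit with those numbers as a replicate block the counts of called spindle kinesins were 5 in CAS, 5 in SBM, 3 in SDPP and 5 in YMW, with no call changed for the named genes.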
